A study of Mus musculus with 16 samples.

Results

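Duox2, Duoxa2, Nox1, Nos2, Saa1, Saa2, Saa3, Lcn2 and Pigr are genes through which the gut lining and the acute phase response act on microbes. They were taken by gene symbol from the full table of counts, where all 9 were found among 24940 genes, and each was followed through the 16 libraries. The libraries hold polyA RNA of ileum next to the cecum, rinsed and homogenised as whole tissue, from C57BL/6 mice, in 4 groups of 4, WT and LKO of each sex. WT mice were Bcl6 fl/fl, with loxP sites around part of Bcl6, which encodes a transcriptional repressor. LKO mice carried the same alleles and Cre recombinase under the albumin promoter, which is active in hepatocytes, so the deletion was aimed at the liver and not at the tissue sequenced here. The age of the animals was not given in the labels, and the study's methods describe its experiments in general as done on freely fed or briefly fasted animals.

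Epithelial cells of the ileum meet bacteria at their brush border. Dual oxidase 2 (Duox2) makes hydrogen peroxide there and leaves the endoplasmic reticulum only with its maturation factor (Duoxa2), NADPH oxidase 1 (Nox1) makes superoxide, and inducible nitric oxide synthase (Nos2) makes nitric oxide from arginine. Serum amyloid A proteins (Saa1, Saa2, Saa3) carry retinol and lipids and are produced by liver and gut epithelium during the acute phase response and on contact with adherent bacteria, lipocalin 2 (Lcn2) withholds iron by binding bacterial siderophores, and the polymeric immunoglobulin receptor (Pigr) carries IgA through the epithelium into the lumen.

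Total gene counts lay between 15.7 and 20.5 M (1 M is 1000000 counts), apart from female LKO replicate 1 with 60.3 M. Bcl6 itself, deleted in hepatocytes only, averaged 15.9 CPM (counts scaled to 1000000 per library) in male WT and 18.9 in male LKO, with overlap, and 12.1 in female WT and 20.7 in female LKO, without overlap (highest 15.1 and lowest 15.2), so its level in ileum does not check the genotype labels. All 10 markers listed for ileal enterocytes had counts, and their sums lay between 19566 and 25090 CPM over the 16 libraries. The B cell and follicle markers (9 of 10 listed found, none at 0) summed to 130 CPM in male WT replicate 2, 77.2 CPM in female WT replicate 3, 225 CPM in female LKO replicate 2 and 427 CPM in female LKO replicate 3, against 18.4 to 31.4 CPM in the other libraries. Whether that pattern takes part in the values of the defence genes was not tested. Each comparison was repeated without those of these 4 libraries that it held. For LKO against WT in males this left out male WT replicate 2 only. In whole tissue, fewer cells of a type and less RNA per cell cannot be told apart. The sample titles carry a number, and in males every WT library has a lower number than every LKO library. Title order and genotype therefore cannot be told apart in males, which limits every male LKO against WT value given below.

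Compared per kilobase (kb) of counted exons so that genes can be set against each other, the 9 genes lay far apart. Pigr was the most abundant, at 1400 CPM per kb on average over the 16 libraries, which placed it 34th among all genes in the table. Saa1 followed at 600.0 CPM per kb, then Duoxa2 at 185, Duox2 at 131 and Nos2 at 115. Saa3 (12.9 CPM per kb), Nox1 (9.96), Lcn2 (4.11) and Saa2 (0.867) were low. Between libraries Saa1 was the most variable of the abundant genes, ranging from 110 to 1300 CPM per kb, whereas Pigr stayed between 1173 and 1737.

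**Figure D1:**
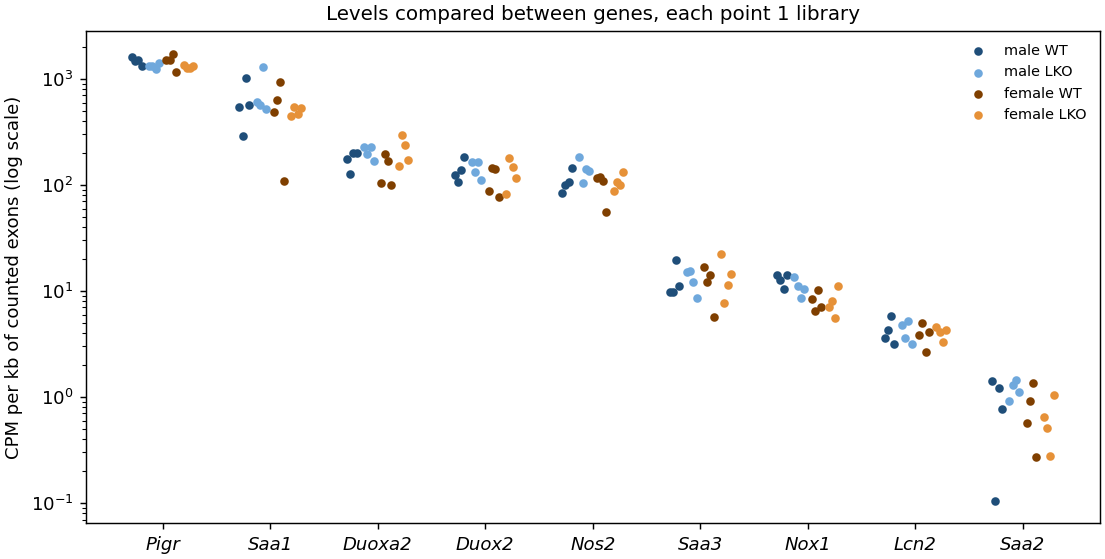
Levels of the 9 genes on 1 scale, in CPM per kb of counted exons on a logarithmic axis, with 1 point per library and colours for the 4 groups. Pigr lies at the top (mean 1400), Saa2 at the bottom (mean 0.867), and the single low Saa1 point at 110 is female WT replicate 4.

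Duox2 (chr2:122280437-122298165, minus strand, mm10) and Duoxa2 (chr2:122298900-122302885, plus strand) lie head to head. In the RefSeq annotation of GRCm38.p6, the assembly also called mm10, the outermost 5′ end of Duox2 is at 122298740, so 159 bases separate it from the start of the maturation factor. The counted Duox2 model is shorter, and leaves 734 bases between both counted models. The interval between these ends is shown because it lies upstream of both genes. It is written 5′ to 3′ on the plus strand with the TATAAA motif in capitals, chr2:122298741-122298899.

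Duox2 and Duoxa2 start region: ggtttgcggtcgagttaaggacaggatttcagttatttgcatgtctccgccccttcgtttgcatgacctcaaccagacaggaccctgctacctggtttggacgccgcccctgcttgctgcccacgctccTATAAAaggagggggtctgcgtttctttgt

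Of the 8 members with a promoter in the RefSeq table, 1 window of 250 bases before the start held TATAAA on either strand, that of Duoxa2, and 12.4% of 32851 windows of the same length did. The table takes a start farther inside the gene for Duox2, and the window searched for it does not reach the interval printed here.

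Duox2 was measured at 566, 482, 624 and 826 CPM in male WT and at 738, 599, 739 and 505 CPM in male LKO (replicates 1 to 4). Female levels were 395, 655, 640 and 347 CPM in WT and 376, 808, 675 and 527 CPM in LKO. All 4 groups overlapped, and the lowest library was female WT replicate 4. Group means were 624 ± 147 CPM (SD, n = 4) in male WT, 646 ± 114 in male LKO, 509 ± 161 in female WT and 597 ± 187 in female LKO. The log2 fold change of LKO against WT was 0.05 ± 0.19 (SE) in males and 0.23 ± 0.32 in females, and neither passed edgeR's quasi-likelihood test with Benjamini-Hochberg adjustment (adjusted p = 0.999 and 0.802). The 2 highest Duox2 levels of female LKO belonged to replicates 2 and 3, the libraries with 225 and 427 CPM of B cell and follicle markers. The other groups differed from this. In male WT the library with raised markers, replicate 2, had the lowest Duox2 level (482 CPM). In female WT replicate 3, with raised markers, was at 640 CPM, below replicate 2 at 655 CPM. Without the 4 libraries with raised B cell markers the female log2 fold change was -0.05 ± 0.38. The male one, which loses only male WT replicate 2, was -0.05 ± 0.17, and neither passed the test.

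Duoxa2 followed the same libraries. It was at 276, 199, 316 and 317 CPM in male WT and at 363, 309, 359 and 268 CPM in male LKO. The females gave 165, 313, 268 and 159 CPM in WT and 240, 474, 375 and 275 CPM in LKO. The LKO animals tended to the upper side, with 11 of 16 LKO and WT pairs higher in LKO in males and 13 of 16 in females, but the groups overlapped in both sexes. The female means were 341 ± 106 CPM in LKO and 226 ± 76.6 CPM in WT (SD, n = 4), a log2 fold change of 0.59 ± 0.32 with an edgeR adjusted p of 0.505. In males the log2 fold change was 0.23 ± 0.15 with an edgeR adjusted p of 0.999. With both sexes together and sex as a covariate it was 0.41 ± 0.19, with an unadjusted edgeR p of 0.0446 and an adjusted p of 0.431. Without the 4 libraries with raised B cell markers the female value was 0.28 with an edgeR adjusted p of 0.931, and the value over both sexes was 0.17.

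The number of Duoxa2 counts per Duox2 count cancels library size and any change common to the pair. This ratio was examined after the levels had been seen. In females it was 0.417, 0.478, 0.419 and 0.459 in WT and 0.639, 0.586, 0.555 and 0.521 in LKO. Every female LKO library lay above every female WT library. For comparison, the female groups did not overlap, in either direction, for 6.31% of the 15298 single genes tested. No such share is given here for pairs of genes. The mean log2 ratio differed by 0.37 (LKO minus WT), and the two-sided p by exact permutation was 0.0286, the least that 70 relabellings allow. The female difference lay between 0.32 and 0.42 with each library left out in turn. In males the ratio was 0.488, 0.413, 0.506 and 0.384 in WT and 0.492, 0.516, 0.485 and 0.530 in LKO. The male groups overlapped, with a log2 difference of 0.18 and an exact permutation p of 0.143. Permuting genotype within both sexes (4900 relabellings) gave a mean log2 difference of 0.28 and p = 0.00204, and the same exact permutation gave p = 0.350 for the male difference against the female one. Without the 4 libraries with raised B cell markers the log2 difference was 0.36 in females, where 2 LKO libraries against 3 WT allow no exact permutation p under 0.1, and 0.15 in males.

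**Figure D2:**
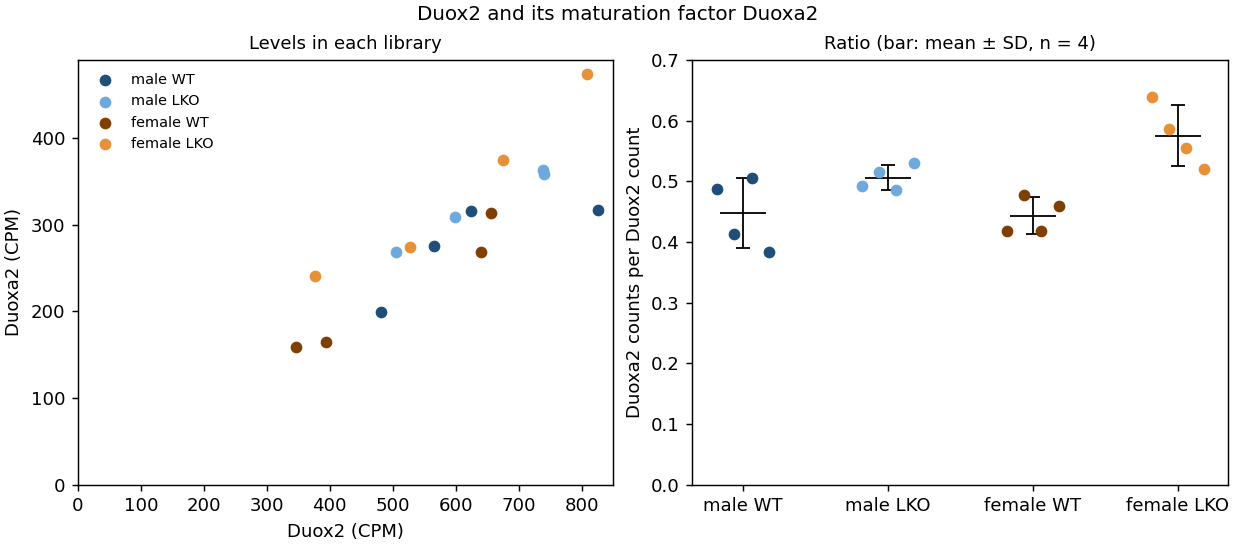
Left, Duoxa2 against Duox2, both in CPM, with 1 point per library. Right, Duoxa2 counts per Duox2 count by group, with points in replicate order and a bar for the mean ± SD (n = 4); the 4 female LKO points lie between 0.521 and 0.639, above the 4 female WT points between 0.417 and 0.478.

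Nox1 (chrX:134086421-134111854, minus strand) differed more between sexes than between genotypes. It was at 35.8, 32.6, 26.7 and 36.4 CPM in male WT and at 21.2, 16.7, 26.2 and 18.1 CPM in female WT. Every male WT library was above every female WT library, although the gap between the lowest male and the highest female was narrow. For comparison, male WT and female WT did not overlap, in either direction, for 8.38% of the 15229 genes tested. Paneth cell marker sums also separated these groups, at 11602 to 13988 CPM in male WT and 15331 to 21626 CPM in female WT, and 6 of 8 smooth muscle markers were lower in male WT at an unadjusted edgeR p below 0.05. Their part in the Nox1 difference was not tested. In LKO it was at 34.3, 28.3, 22.1 and 26.4 CPM in males and at 17.9, 20.6, 14.2 and 28.3 CPM in females, with overlap. The log2 fold change of males against females was 0.67 ± 0.14 in WT, with an unadjusted edgeR p of 0.000355 and an adjusted p of 0.0773, and 0.46 ± 0.21 in LKO, with an adjusted p of 0.234. Nox1 in WT passed the threshold with DESeq2 (log2 fold change 0.68, adjusted p = 0.00085), and with edgeR when female WT replicate 3 was left out (0.81, adjusted p = 0.0173) or the libraries with raised B cell markers were (0.82). The LKO value passed with edgeR only without female LKO replicate 4 (0.66, adjusted p = 0.0472). LKO against WT gave -0.24 ± 0.13 in males and -0.03 ± 0.22 in females, neither past the edgeR threshold (adjusted p = 0.999 and 0.973).

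Nos2 (chr11:78920787-78960226, plus strand) was at 348, 415, 442 and 597 CPM in male WT and at 766, 435, 590 and 558 CPM in male LKO. In females it was at 482, 490, 456 and 229 CPM in WT and at 360, 442, 415 and 551 CPM in LKO. Male LKO held the highest library and female WT replicate 4 the lowest, and every pair of groups overlapped. Male LKO exceeded male WT in 12 of 16 pairs, with means of 587 ± 136 and 451 ± 105 CPM (SD, n = 4) and a log2 fold change of 0.39 ± 0.21, and edgeR gave an adjusted p of 0.999. In females the log2 fold change was 0.09 ± 0.26, with an edgeR adjusted p of 0.908, and it changed sign to -0.11 without female WT replicate 4. Between the sexes Nos2 differed by 0.41 ± 0.18 in LKO (males higher, edgeR adjusted p = 0.236) and by 0.11 ± 0.28 in WT (adjusted p = 0.899).

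Saa1 (chr7:46740497-46742980, minus strand), Saa2 (chr7:46751833-46754314, plus strand) and Saa3 (chr7:46711998-46715676, minus strand) sit in 1 cluster. Saa1 and Saa2 are near copies, and their promoters are shown because the counts of these genes differed so widely. The 250 bases before each RefSeq start (GRCm38.p6) are written 5′ to 3′ on the strand of the gene, with bases that differ between both genes in an alignment, or that face a gap, in capitals. They come from chr7:46742981-46743230 for Saa1 and chr7:46751583-46751832 for Saa2.

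Saa1 promoter: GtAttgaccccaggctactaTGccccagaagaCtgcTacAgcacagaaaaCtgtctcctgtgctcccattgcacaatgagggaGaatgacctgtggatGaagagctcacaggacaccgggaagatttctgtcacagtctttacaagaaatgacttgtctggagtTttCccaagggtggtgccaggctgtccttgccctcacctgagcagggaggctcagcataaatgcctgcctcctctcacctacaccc
Saa2 promoter: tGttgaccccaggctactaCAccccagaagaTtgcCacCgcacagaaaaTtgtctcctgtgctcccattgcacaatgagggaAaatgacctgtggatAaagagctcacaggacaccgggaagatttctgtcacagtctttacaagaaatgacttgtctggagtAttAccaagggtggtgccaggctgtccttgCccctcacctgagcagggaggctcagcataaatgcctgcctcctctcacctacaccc

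The alignment held 238 identical positions, 11 substitutions and 2 gaps, an identity of 94.8%, against 48.5% between the promoters of Saa1 and Saa3. A match to TTGCNNAA, the form of motif that C/EBP factors bind, stood on either strand of the promoters of Saa1, Saa2, Saa3 and Lcn2, 4 of the 8 members searched, and in 9.56% of the 32851 promoters. TTCNNNGAA, the form that STAT factors bind, was in none of the 8 and in 7.02% of all, and the kappaB consensus was in that of Nox1 only and in 7.25% of all. Such matches are a description of the letters.

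The coding sequences differ enough to tell 100-base reads of both genes apart. The 366 coding bases of Saa1 and Saa2 (GENCODE M21, GRCm38) differed at 18 positions. Of the 510 windows of 100 bases in the Saa1 transcript, 0% were identical to any window of Saa2, 1.76% were within 1 mismatch and 22.4% within 4 mismatches, the number allowed when the authors aligned the reads. The window with the most differences, 11 of 100 bases, is coding bases 50 to 149. It is shown with the differing bases in capitals, and it crosses an intron, so its genomic span is wider than its length (chr7:46741337-46742473 for Saa1, chr7:46752340-46753475 for Saa2).

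Saa1 coding window: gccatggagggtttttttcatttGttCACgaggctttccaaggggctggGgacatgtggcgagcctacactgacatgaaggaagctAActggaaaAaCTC
Saa2 coding window: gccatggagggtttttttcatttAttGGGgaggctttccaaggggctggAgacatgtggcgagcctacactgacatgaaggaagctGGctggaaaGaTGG

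Despite this likeness, the 16 libraries held 116783 counts of Saa1 and 170 of Saa2, which is 687 Saa1 counts for each Saa2 count. Saa2 had between 1 and 24 counts per library. Saa3, which macrophages and adipocytes also make, had 2476 counts in all.

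Saa1 was at 330, 176, 619 and 345 CPM in male WT and at 365, 347, 788 and 317 CPM in male LKO. Female levels were 297, 385, 568 and 66.8 CPM in WT and 270.4, 331, 286 and 326 CPM in LKO. Replicate 3 was high in male WT, male LKO and female WT, female WT replicate 4 was lowest, and the 4 female LKO libraries lay close together. The spread within a group (SD, n = 4) was 184 CPM around a mean of 367 in male WT, 223 around 454 in male LKO, 208 around 329 in female WT and 29.7 around 303 in female LKO. LKO against WT gave a log2 fold change of 0.31 ± 0.48 in males and -0.12 ± 0.58 in females, with edgeR adjusted p-values of 0.999 and 0.952. The male value was -0.10 without male LKO replicate 3, and leaving out replicate 3 or replicate 4 of female WT moved the female value to 0.28 or -0.46.

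Saa2 was at 0.858, 0.0638, 0.730 and 0.462 CPM in male WT and at 0.559, 0.777, 0.876 and 0.672 CPM in male LKO. The females gave 0.344, 0.550, 0.823 and 0.164 CPM in WT and 0.388, 0.305, 0.168 and 0.637 CPM in LKO. Among LKO animals 15 of 16 pairs were higher in the male, with a log2 fold change of 0.90 ± 0.37, an unadjusted edgeR p of 0.0300 and an adjusted p of 0.179. With 3 counts in female LKO replicate 3 and in female WT replicate 4 and 1 count in male WT replicate 2, single libraries of Saa2 are imprecise. Male LKO against WT gave 0.40 ± 0.45 (edgeR adjusted p = 0.999), and 0.074 without male WT replicate 2 or 0.74 without male WT replicate 1, and the female comparison was not tested because Saa2 fell under the count filter there.

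Saa3 was at 5.20, 5.16, 10.3 and 5.85 CPM in male WT and at 7.88, 8.07, 6.43 and 4.50 CPM in male LKO. In females it was at 8.89, 6.38, 7.40 and 2.96 CPM in WT and at 11.8, 4.03, 5.95 and 7.60 CPM in LKO. The highest and the lowest library were both female, and all groups overlapped. LKO against WT gave 0.02 ± 0.25 in males and 0.24 ± 0.41 in females, with edgeR adjusted p-values of 0.999 and 0.844. The adipocyte markers (7 of 7 found, none at 0) summed to between 103 and 345 CPM in male WT, 103 and 161 in male LKO, 109 and 200.1 in female WT and 164 and 373 in female LKO, and the macrophage markers (10 of 10, none at 0) to between 493 and 713 CPM over the 16 libraries. Their part in the Saa3 level was not tested.

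Lcn2 (chr2:32384637-32387739, minus strand) was at 3.03, 3.63, 4.94 and 2.67 CPM in male WT and at 4.07, 3.05, 4.44 and 2.69 CPM in male LKO. Female levels were 3.27, 4.18, 2.25 and 3.51 CPM in WT and 3.88, 3.48, 2.81 and 3.61 CPM in LKO. The group means, from 3.30 to 3.57 CPM, differed by less than the SD within a group (0.455 to 1.00 CPM). The log2 fold change of LKO against WT was 0.01 ± 0.23 in males and 0.07 ± 0.20 in females, with edgeR adjusted p-values of 1.00 and 0.904. Lcn2 is also a neutrophil granule gene. The neutrophil markers (10 of 10 found, none at 0 throughout, 7 under 1 CPM on average) summed to between 6.63 and 15.8 CPM over the 16 libraries, and the groups overlapped.

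Pigr (chr1:130826684-130852249, plus strand) was at 6237, 5716, 5777 and 5060 CPM in male WT and at 5104, 5076, 4751 and 5466 CPM in male LKO. The females gave 5856, 5750, 6662 and 4501 CPM in WT and 5209, 4889, 4857 and 5039 CPM in LKO. In each sex replicates 1 to 3 of WT were above every LKO library, while replicate 4 of WT lay below most of them, so that the groups overlapped. The mean was 5698 ± 485 CPM in male WT against 5099 ± 292 in male LKO, and 5692 ± 893 in female WT against 4999 ± 161 in female LKO (SD, n = 4). The log2 fold change of LKO against WT was -0.15 ± 0.07 in males, -0.19 ± 0.10 in females and -0.17 ± 0.06 with both sexes together. The edgeR adjusted p-values were 0.965, 0.498 and 0.271, the last with an unadjusted p of 0.0116. Without the 4 libraries with raised B cell markers the female value was -0.07 and the male value -0.15. With sets of neighbouring title numbers as a factor the value over both sexes was -0.017, with an edgeR adjusted p of 0.968. Plasma cell markers (7 of 7, none at 0) summed to between 1807 and 2742 CPM over the 16 libraries with overlap of all groups. The caecum and colon epithelium markers (9 of 9, none at 0, 2 under 1 CPM on average) summed to between 5240 and 5649 CPM in female LKO and between 5805 and 7200 CPM in female WT, without overlap. In males their sums overlapped, at 5781 to 7561 CPM in LKO and 6264 to 7091 CPM in WT. The part of these markers in the Pigr level was not tested. Most of the sum in females was Muc2, at 4976 CPM on average in female LKO and 5670 CPM in female WT, so it mainly follows this 1 gene.

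**Figure D3:**
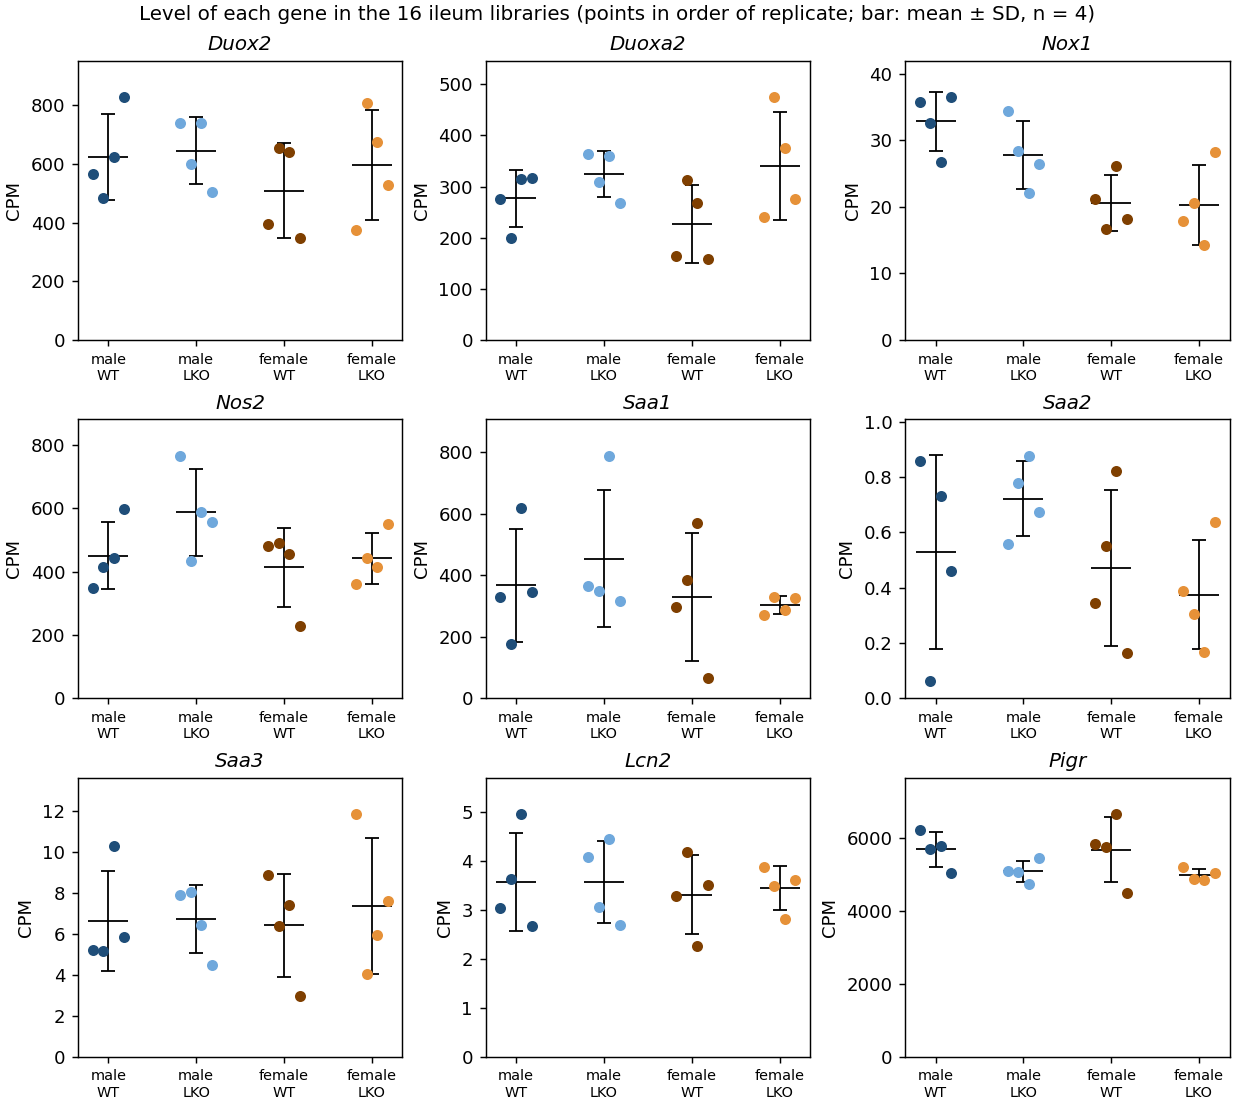
Level of each gene in CPM, from 0, in the 4 groups, with 1 point per library in replicate order and a bar for the mean ± SD (n = 4). Groups overlap in every panel apart from male WT against female WT for Nox1, where the lowest male WT library is at 26.7 and the highest female WT library at 26.2.

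For LKO against WT, edgeR called few genes in either sex, and none of the 9. In males edgeR called 0 of 9 members at an adjusted p below 0.05, where 8 of 15169 genes tested (0.0527%) were called. In females it called 0 of the 8 members tested, against 6 of 15298 genes (0.0392%). With both sexes together it called 0 of 9, against 42 of 15598 genes (0.269%), and for the difference between the male and female effects 0 of 9, against 0 of 15598 genes (0%). At an unadjusted p below 0.05 the members numbered 0 in males (5.29% of all genes), 0 in females (11.7%), 2 with both sexes together, namely Duoxa2 and Pigr (11.2%), and 0 for the difference between the sexes (5.64%). DESeq2 called 0 members in each of these comparisons. Over all genes it called 59 of 17540 in males, 156 of 12820 in females and 223 of 12646 with both sexes together. For the difference between the male and female effects it called 0 of 20510. None of the 9 had genotype groups without overlap in either sex, compared with 2.95% of all genes in males and 6.31% in females.

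The median log2 fold change of the members tested was 0.05 in males and 0.08 in females, beside -0.0020 and 0.0070 over all genes tested. In males the members ranged from -0.24 (Nox1) to 0.40 (Saa2) with 7 of 9 above 0, and in females from -0.19 (Pigr) to 0.59 (Duoxa2) with 5 of 8 above 0. The fitted difference between the male and the female effect ranged from -0.36 to 0.70 over the 9 genes, with a smallest edgeR adjusted p of 0.900.

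**Figure D4:**
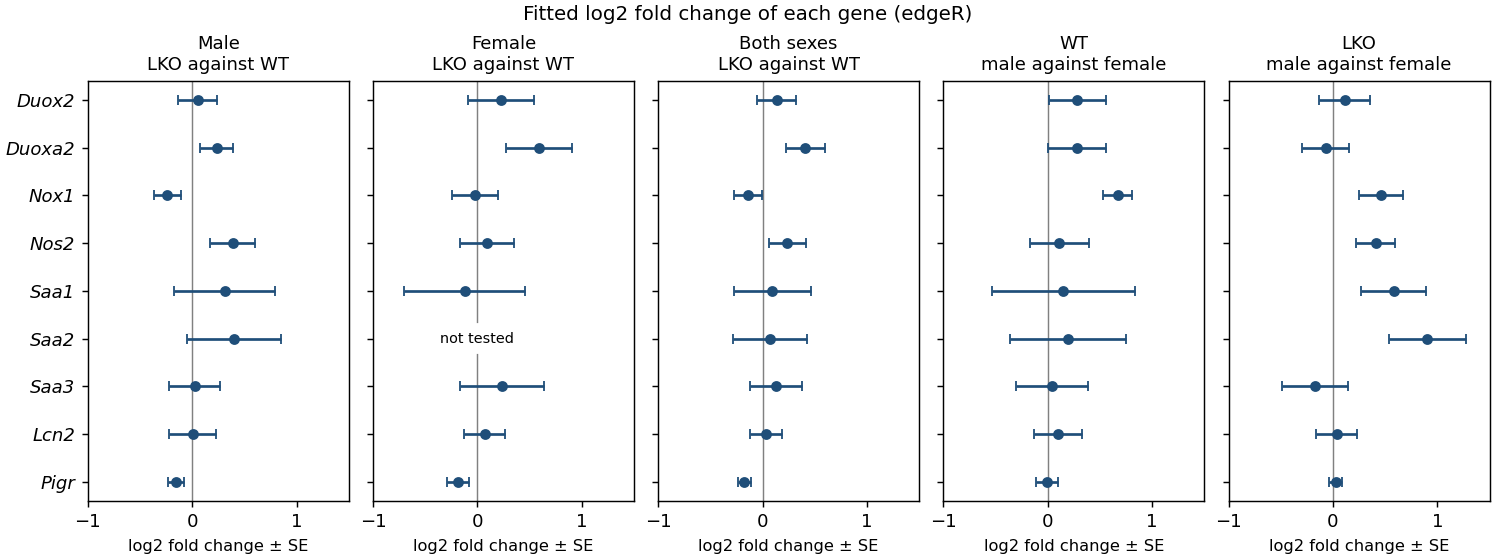
Fitted log2 fold change of each gene with its standard error in 5 comparisons, with a line at 0; positive values are higher in LKO (left 3 panels) or in males (right 2 panels). Nox1 in WT, at 0.67 ± 0.14, and Pigr with both sexes together, at -0.17 ± 0.06, lie farthest from 0 in units of their standard error.

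Between males and females, edgeR called 0 of 9 members in WT, against 38 of 15229 genes (0.25%), and 0 of 9 in LKO, against 15 of 15250 genes (0.0984%). At an unadjusted p below 0.05 there was 1 member in WT (Nox1), against 13.9% of all genes, and 1 in LKO (Saa2), against 22.6%. DESeq2 called 1 member in WT, Nox1, where it called 240 of 14169 genes (1.69%), and 0 in LKO, where it called 1036 of 15101 genes. Nox1 in WT was the only member with groups that did not overlap between the sexes, compared with 8.38% of all genes in WT and 12.9% in LKO. The median log2 fold change of males against females was 0.15 in WT and 0.11 in LKO, beside -0.0073 and -0.00053 over all genes.

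Some members varied together across the 16 libraries. Duox2 and Duoxa2 were the closest pair, with Pearson's r = 0.887 and Spearman's rho = 0.915 of log2 CPM over the 16 libraries. Both permutation p-values were 1e-05, the smallest that 100000 permutations can give, and 0.00036 after Benjamini-Hochberg adjustment over the 36 pairs of members. Without the 2 libraries farthest from the median Duox2 level r was 0.889, and after subtracting group means it was 0.947.

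Saa1 and Saa2 were the other pair to pass, with r = 0.729 (permutation p = 0.0016, adjusted p = 0.0288) and rho = 0.741 (permutation p = 0.00161, adjusted p = 0.0290). Without the 2 libraries farthest from the median Saa1 level r was 0.748. Saa2 had only 1 to 24 counts per library, and whether some of them were reads of its near copy Saa1 was not tested. Duox2 and Saa1 gave r = 0.647 (permutation p = 0.00449, adjusted p = 0.0539) and rho = 0.679, and r fell to 0.427 without the 2 farthest libraries. Nos2 and Saa1 gave r = 0.661 (permutation p = 0.0119, adjusted p = 0.0717) and 0.374 without the 2 farthest, so both relations rested in part on those libraries. Saa1 and Saa3 gave r = 0.560 (permutation p = 0.0243, adjusted p = 0.125). Lcn2 gave r = -0.04 with Duox2 (permutation p = 0.892, adjusted p = 0.973) and r = 0.12 with Saa1 (permutation p = 0.671, adjusted p = 0.930). The labels name no batch within which the relations could be repeated.

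Female WT replicate 4 was the lowest of all 16 libraries in 6 of the 9 genes, which were Duox2, Duoxa2, Nos2, Saa1, Saa3 and Pigr. Its Saa1 level deviated by -2.27 log2 units from the mean of the 16 libraries. At the other end male LKO replicate 3 was highest in Saa1, by 1.28 log2 units, and in Saa2, by 0.81. Saa2 had its lowest library in male WT replicate 2, which carried raised B cell markers.

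**Figure D5:**
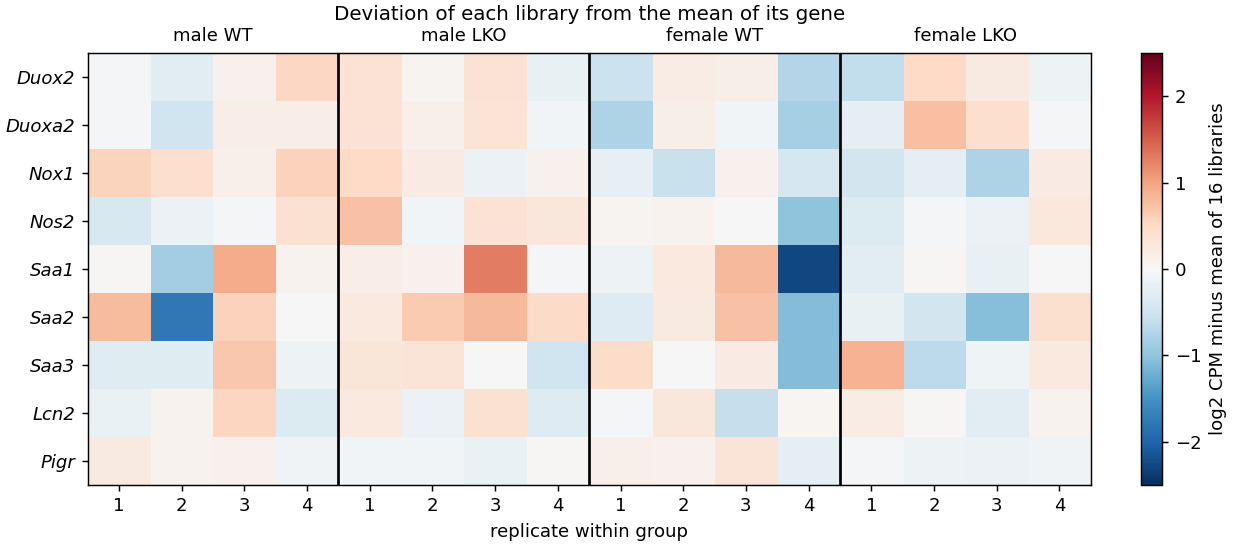
Deviation of log2 CPM (prior count 2) of each gene from its mean over the 16 libraries, with 1 column per library, replicates 1 to 4 within each group, blue for lower and red for higher. The column of female WT replicate 4 is blue in 8 of the 9 rows, most deeply for Saa1 at -2.27, and the rows of Duox2 and Duoxa2 run in parallel.

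The genes whose levels were most like those of each member are given as a description over 16 libraries that share depth and tissue make-up, among 14423 genes with a mean of at least 1 CPM. For Duox2 they were Smarca4 (r = 0.893), Duoxa2 (0.887), Dnmt1 (0.812), Myh9 (0.802) and Phrf1 (0.801). For Duoxa2 they were Duox2 (0.887), Egln3 (0.887), Rnd1 (0.828), Gpx2 (0.816), an epithelial glutathione peroxidase, and Ccr4 (0.810). Hmox1, heme oxygenase 1, joined both lists after group means were subtracted, at 0.856 with Duox2 and 0.849 with Duoxa2.

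For Nox1 they were Fam102b (0.912), Noxo1 (0.905), Cast (0.897), Dsc2 (0.894) and Nf2 (0.883), and Noxo1 encodes the organiser subunit that Nox1 works with. For Saa1 they were Ltf (0.918), which encodes the iron-binding lactoferrin, Rilpl2 (0.856), Cep128 (0.834), Plet1os and Reg3b (0.820), which encodes a secreted antibacterial lectin. For Saa3 they were Psme2b (0.886), Ly6a (0.865), Il18bp (0.853), Psme1 (0.846) and Irf1 (0.819), of which Irf1 encodes an interferon-regulated transcription factor. For Nos2, Lcn2 and Pigr the closest genes were Pprc1 (0.856), Rpl7a (0.873) and Mov10 (0.826). Reg3b averaged 15593 CPM over the 16 libraries and Ltf 2.03 CPM, so genes of very unequal level were among those most like Saa1. The lowest Ltf level in female WT was 0.384 CPM. How far these values rest on single libraries, such as female WT replicate 4 for Saa1, was not tested.

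Among the genes that work with the members, 8 lists of companions were counted, and only Itln1 passed the adjusted test in a genotype comparison. The oxidase partners (11 of 12 tested in each genotype comparison) had 1 gene higher in males at an unadjusted edgeR p below 0.05, Duoxa1 (0.84 ± 0.36, at 0.862 CPM in LKO and 0.481 in WT). In females there was 1, Cyba, which encodes the membrane partner p22phox of Nox1 (0.28 ± 0.05, unadjusted p = 0.000206, edgeR adjusted p = 0.117, at 97.8 CPM in LKO and 80.8 in WT). The medians of the list were -0.01 in males and 0.19 in females. Duox1, the other dual oxidase, averaged 0.410 CPM over the 16 libraries, while Noxo1 averaged 106 and Noxa1 47.9.

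Of the peroxide and redox genes (16 of 20 tested), 0 of 16 had an unadjusted p below 0.05 in males. In females Gpx1 was 1 on the higher side (0.24 ± 0.06, edgeR adjusted p = 0.237) and Cat, catalase, 1 on the lower side (-0.20 ± 0.08, adjusted p = 0.362). The medians were -0.02 and 0.06. Of the 11 nitric oxide and arginine genes, 0 in males and 1 in females had an unadjusted p below 0.05, Gch1, which encodes the first enzyme of the tetrahydrobiopterin cofactor that Nos2 needs (0.29 ± 0.11, edgeR adjusted p = 0.347). With both sexes together Gch1 and Ddah1 numbered 2, and the medians were 0.04 in males and 0.09 in females.

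The acute phase and iron list was mostly at the detection limit, with 6 of 15 genes tested in males and 5 in females. No gene had an unadjusted p below 0.05 in males and 3 did in females, all higher in LKO. They were Hp, haptoglobin, at 5.97 CPM against 2.86 (1.05 ± 0.34, edgeR adjusted p = 0.318), Orm1, orosomucoid, at 2.41 against 0.928 (1.33 ± 0.50, adjusted p = 0.363) and Bdh2, an enzyme linked to a mammalian siderophore, at 1.53 against 0.720 (1.07 ± 0.34, adjusted p = 0.303). In the same libraries the adipocyte marker sums given with Saa3 were higher in female LKO (median 250 CPM) than in female WT (148 CPM), and their part in these values was not tested. The medians of the list were 0.18 in males and 1.05 in females.

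For the IL-22 and IL-17 axis, which drives several members in epithelium, 15 of 20 genes were tested in each sex. In males 2 had an unadjusted p below 0.05, both higher in LKO. They were Stat3, the signal transducer under the IL-22 receptor (0.15 ± 0.06, edgeR adjusted p = 0.856), and Socs3, its feedback inhibitor (0.75 ± 0.31, adjusted p = 0.945). In females Tnf was higher (0.54 ± 0.24, edgeR adjusted p = 0.400). The receptor subunits Il22ra1 and Il17rc averaged 202 and 190 CPM, while the cytokines Il22 and Il17a averaged 0.322 and 0.474 CPM. The medians were 0.13 in males and 0.08 in females.

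Of the 19 microbial recognition and NF-kB genes, 0 had an unadjusted p below 0.05 in males and 3 in females. Nfkbia, the inhibitor of NF-kB, was higher in female LKO (0.34 ± 0.07, unadjusted p = 0.000441, edgeR adjusted p = 0.162, at 125 against 98.9 CPM), as was Relb, and Tlr3 was lower (-0.35 ± 0.12, adjusted p = 0.320). With both sexes together 4 genes were on the higher side, Nfkbia, Relb, Rela and Myd88, the closest to the threshold being Nfkbia (0.26 ± 0.07, edgeR adjusted p = 0.114). The medians were 0.05 and 0.03. In the secretory IgA list, whose proteins make and move the cargo of Pigr, 12 of 14 were tested, with Xbp1 as 1 gene in males (0.14 ± 0.06, edgeR adjusted p = 0.920) and Mzb1 as 1 in females (0.40 ± 0.17, adjusted p = 0.417) under an unadjusted p of 0.05. Its medians were 0.04 and 0.05.

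The secreted antimicrobials and chemokines (13 of 16 tested in each sex) held the only genotype call. Itln1, an intelectin that binds microbial sugars, was higher in male LKO, at 2300 CPM on average against 1459 in male WT (0.66 ± 0.07, edgeR adjusted p = 0.000609). As given above, title order and genotype cannot be told apart in males. Pla2g2a (0.45 ± 0.09, edgeR adjusted p = 0.0923), Ang4 (0.45 ± 0.13, adjusted p = 0.592) and Cxcl5 (0.65 ± 0.28, adjusted p = 0.909) were on the same side in males at an unadjusted p below 0.05. Itln1, Ang4 and Pla2g2a are also among the 8 Paneth cell markers, whose sum lay between 11602 and 13988 CPM in male WT and between 17323 and 20551 CPM in male LKO, without overlap, and its part in these values was not tested. In females Slpi (0.37 ± 0.11, edgeR adjusted p = 0.291) and Ccl20 (0.59 ± 0.23, adjusted p = 0.362) were higher at an unadjusted p below 0.05. The medians of this list were 0.39 in males and 0.27 in females.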

How the data were processed

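The members and the gene lists were chosen with earlier results of these data known. The authors made stranded mRNA libraries, read 100 bases from 1 end, used STAR 2.5.2 for alignment to mm10 (1 genomic position and at most 4 mismatches per read), and counted them over exons with HOMER 4.10, 1 RefSeq transcript per gene. The deposited values are these raw counts, whole numbers with no scaling, and all 16 columns of counts were used. The strand option of the counting is not given in the sources used here. Reads that matched several places were discarded, which lowers the counts of genes with close copies.

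Groups and replicate numbers came from the sample titles. Counts were tested in R 4.3.3 with edgeR 4.0.16 (TMM scaling, filterByExpr by group, robust quasi-likelihood F-test, Benjamini-Hochberg threshold 0.05) on the whole table: comparisons of 2 groups on their 8 libraries, the difference between sexes and the effect over both sexes on all 16, the latter with sex as a covariate. Every member was named, companions only at an unadjusted p below 0.05 in a genotype comparison. Some results for companions are not reported here. The exceptions, given as levels and chosen after their values were seen, were Duox1, Noxo1, Noxa1, Il22ra1, Il17rc, Il22, Il17a, Reg3b and Ltf. The SE is the size of the log2 fold change over the square root of F. CPM is scaled by TMM over 16 libraries. Nothing in the labels says how the animals were related beyond separate titles, so p-values measure the spread between these samples. At these depths 3 counts, the upper limit of a count of 0, equal 0.0497 to 0.191 CPM, counting error only. Promoter sequences are from RefSeq GRCm38.p6 and transcripts from GENCODE M21, aligned with Biopython 1.88. The scripts were tested on simulated data. Alternatives were DESeq2 1.42.0, other scalings, filters and fits, a replicate block, the number in the title, a thinned deepest library and each library left out. Leaving out the 4 libraries with raised B cell markers, and the ratio of Duoxa2 to Duox2, were added after seeing the data.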

Additional observations from a re-analysis of the deposited data

Results flagged for a closer look

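Over 36 sets of 4 libraries (9 genes in 4 groups), 2 held a library set apart from the other 3, with a gap to its neighbour, as a share of the range of the group on the log2 scale, above Dixon's 95% critical value for 4. Chance flags about 1 group in 20. Nos2 in female WT replicate 4, at 229 CPM, was the lowest of its group with a gap of 0.905 of the range, and Saa1 in male LKO replicate 3, at 788 CPM, was the highest of its group with a gap of 0.846. No member had male and female genotype effects that differed past the threshold or pointed in opposite directions in every library.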

How the results depend on the processing

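Of 912 member values under the alternatives, 830 kept their direction and their side of the threshold, 77 changed sign and 5 passed it, and the largest value that changed sign was 0.31 (log2). For LKO against WT in males, leaving out the libraries with raised B cell markers and leaving out male WT replicate 2 are the same fit. Both are among these values. The count of members called was 1 in place of 0 in females with the replicate block (Duoxa2, 0.60, edgeR adjusted p = 0.0141), and 1 in the WT sex difference with DESeq2 and without the libraries with raised B cell markers (Nox1, 0.68 and 0.82). With each library left out in turn it ranged from 0 to 1 in both sex differences and stayed at 0 in the genotype comparisons. Same-numbered libraries had correlations of deviations between -0.10 and 0.07 in males and between -0.06 and 0.26 in females. WT replicates 1 (0.18) and 3 (0.26) in females and 3 (0.07) in males correlated best with the LKO library of their own number. These few values do not settle whether the animals were paired. The labels name no pairing, and the block was not used as one. With the block, calls over all genes went from 8 to 16 in males, 6 to 15 in females and 42 to 16 over both sexes.

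Without the libraries with raised B cell markers the sign changed for Duox2 (-0.0506 in males, -0.0466 in females, -0.0539 over both), Saa3 in males (-0.0725), Nox1 (0.28) and Saa1 (0.25) in females, Lcn2 (-0.0526) and Pigr (0.0821) between WT sexes, and Duoxa2 (0.33), Lcn2 (-0.0834) and Pigr (-0.00994) between LKO sexes. Female Saa1 was 0.17 with the replicate block and 0.0209 with the title number as covariate. Pigr between WT sexes was 0.00324 with DESeq2, 0.000419 with RLE scaling, 0.00265 with the block and 0.00124 with all 16 libraries in 1 fit. Upper quartile scaling gave Lcn2 -0.00351 in males, and Lcn2 -0.0149 and Pigr -0.0216 between LKO sexes.

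Leaving out each library gave, in males, Duox2 -0.0506 to 0.21, Saa1 -0.0958 to 0.69, Saa3 -0.0771 to 0.32 and Lcn2 -0.12 to 0.21. In females it gave Nox1 -0.23 to 0.11, Nos2 -0.11 to 0.18, Saa1 -0.46 to 0.28, Saa3 -0.12 to 0.43 and Lcn2 -0.0724 to 0.21. Over both sexes it gave Saa1 -0.11 to 0.29, Saa2 -0.11 to 0.28, Saa3 -0.048 to 0.27 and Lcn2 -0.038 to 0.13. Between WT sexes it gave Nos2 -0.0884 to 0.22, Saa1 -0.22 to 0.55, Saa2 -0.14 to 0.60, Saa3 -0.25 to 0.24, Lcn2 -0.0946 to 0.24 and Pigr -0.10 to 0.0767. Between LKO sexes it gave Duox2 -0.0583 to 0.29, Duoxa2 -0.21 to 0.13, Saa3 -0.36 to 0.19, Lcn2 -0.0899 to 0.14 and Pigr -0.0155 to 0.0561. The cause of these changes was not tested.

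Over all genes the calls ranged from 3 to 59 in males (8 as reported), 0 to 156 in females (6), 0 to 1 for the difference between sexes (0), 0 to 223 over both sexes (42), 9 to 240 between WT sexes (38) and 1 to 1036 between LKO sexes (15), the highest being DESeq2 except for the difference between sexes. With 1 to 24 counts per library, depth limits Saa2.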
